A study of Mus musculus with 16 samples.

Results

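The plexins are the 9 genes of a family of transmembrane receptors in the mouse, Plxna1, Plxna2, Plxna3, Plxna4, Plxnb1, Plxnb2, Plxnb3, Plxnc1 and Plxnd1, and they were taken by their gene identifiers from a table of 53379 genes. The table holds counts of unique molecular identifiers (UMIs, tags that let each captured RNA fragment be counted once) from RNA immunoprecipitation of the transcription factor Sox2 in male mouse embryonic stem cells (mESC), grown on gelatin in serum with LIF, the MEK inhibitor PD0325901 and the GSK3 inhibitor CHIR99021. RNA was crosslinked to protein with formaldehyde (fRIP) or with short-wave ultraviolet light (UV-RIP), and each method has 4 anti-Sox2 immunoprecipitates (IP) and 4 inputs, numbered 3 to 6, from 8 separate plates of cells of this 1 line. An IP and an input with the same number came from 1 lysate, no pulldown with a control antibody is analysed here, and the question was which transcripts were higher in the IP relative to input. Plxnb1 is 1 of the transcripts that the study singled out from these same libraries, so its enrichment is shown here as a description and is no independent evidence.

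Plexins are the receptors for semaphorins, secreted or membrane-bound proteins best known for steering growing axons and blood vessels. A-type plexins bind class 3 semaphorins only together with a neuropilin. Plxnb1 and Plxnb2 bind class 4 semaphorins directly, Plxnc1 binds Sema7a and Plxnd1 binds Sema3e. The part of the receptor inside the cell carries a GTPase-activating domain for small Ras and Rap proteins. In these libraries the plexins were read as RNA, and no semaphorin signalling was measured.

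Total UMIs per library ranged from 14218784 to 17281596 in the UV-RIP IP, 12456298 to 13828610 in the UV-RIP input, 17728081 to 21211537 in the fRIP IP and 13627606 to 15381686 in the fRIP input. The ribosomal-RNA-like locus Gm26917 took 18.4 to 22.3% of the UMIs in the UV-RIP IP and 12.03 to 12.3% in the UV-RIP input, and 5.44 to 12.4% and 5.46 to 8.49% in the fRIP IP and input. The median log2 ratio of all genes lay at -0.17 in UV-RIP and at -0.03 in fRIP. Of the 9 stem cell markers examined, 8 were present and summed to 1874 to 4186 CPM (UMIs of a gene per 1000000 UMIs of its library), while the markers of neural cells (13.6 to 19.97 CPM), endoderm (4.48 to 8.80), mesoderm (2.11 to 6.30) and fibroblasts (1.56 to 3.30) were low in each library. Of the 4 neural markers, Sox1 and Tubb3 had 0 UMIs in all 16 libraries, so the neural sum is that of Nes and Pax6. Overlap with other genes was not examined for Sox1 and Tubb3, so their 0 is not read as absence. Sox2 itself had 0 UMIs in all 16 libraries, where 0 allows up to 0.141 to 0.241 CPM, and its 2057 bases lie wholly inside Sox2ot on the same strand, which had 682 to 1601 UMIs. The antibody binds Sox2 protein, so RNA counts do not check its target, which the study examined by western blot. Within their groups, 2 libraries stood apart: the fRIP IP of plate 5 and the fRIP input of plate 4 differed from the other 3 libraries of their group by chi-square values over their degrees of freedom of 38.3 to 60.01 and 41.0 to 51.9, against 1.52 to 13.5 for the remaining pairs in all groups. fRIP results for the plexins and the named pathway genes are given below with and without these plates.

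Plxnb1 (ENSMUSG00000053646.13) lies on chromosome 9 at 109095389-109119917 on the plus strand of GRCm38, and 39.1% of its 24.5 kb body is exonic. The UMIs were counted over whole gene bodies, introns included, so a value joins spliced and unspliced RNA. Plxna1 (chromosome 6, 89316314-89362620, minus strand), Plxnd1 (chromosome 6, 115954811-115995005, minus) and Plxna3 (chromosome X, 74329066-74344689, plus) span 15.6 to 46.3 kb, and 18.2 to 50.4% of each is exonic. Plxna2 (chromosome 1, 194618218-194816869, plus), Plxnc1 (chromosome 10, 94790866-94944835, minus) and Plxna4 (chromosome 6, 32144268-32588192, minus) span 154 to 444 kb with 3.18 to 8.65% in exons, and Plxnb3 lies on chromosome X at 73757090-73772514 on the plus strand. The deposited Plxnb2 entry, 15.6 kb long, is of another version than the reference annotation and gets no gene coordinates here. No 34-base stretch, the read length, of an annotated plexin transcript occurs in an annotated transcript of another plexin. Of the stretches of this length in Plxna1, 8.31% also occur in a transcript of another gene, the antisense Gm26811, and of those in Plxnb1 2.49%, in Gm7628, Setd7 or Gm9403, on either strand. Introns, which were also counted, were not compared.

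The base composition of the members is shown because log2 ratios in these libraries followed GC content. Averaged over its annotated transcripts, Plxnb1 is 58.8% G and C, the highest of the 9 plexins, and Plxnc1 is the lowest with 48.7%, around a median of 51.0% for the 16162 protein-coding genes tested. By coding sequence alone the highest was Plxnd1 with 60.7% (percentile 89.4), ahead of Plxnb1 with 58.3% (percentile 78.8). The most GC-rich 90 bases of the coding sequence, 5′ to 3′ in the annotated transcripts of GENCODE on GRCm38, are given for both B-type plexins that were enriched in UV-RIP and for Plxnd1 and Plxnc1, which were not. Plxnd1 and Plxnc1 are shown as the members with the richest windows of the 9, and Plxnc1 was enriched in fRIP. In the plexins not shown the richest window held 67.8 to 71.1% G and C, and Plxna1 had the same 71.1% as Plxnb1 and Plxnb2. Capitals mark the longest unbroken run of G and C, and the first of them where 2 are equally long, as in Plxnb1.
Plxnb1: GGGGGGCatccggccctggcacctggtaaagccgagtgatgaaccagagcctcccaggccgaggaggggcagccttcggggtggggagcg
Plxnb2: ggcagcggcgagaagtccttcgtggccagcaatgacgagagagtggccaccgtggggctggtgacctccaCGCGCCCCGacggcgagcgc
Plxnd1: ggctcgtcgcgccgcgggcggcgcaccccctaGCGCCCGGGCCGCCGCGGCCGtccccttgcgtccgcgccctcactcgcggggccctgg
Plxnc1: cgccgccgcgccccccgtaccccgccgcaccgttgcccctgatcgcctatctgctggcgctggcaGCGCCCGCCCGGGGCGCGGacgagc
The Plxnb1 stretch is at chr9:109114276-109114365 on the plus strand, in exon 32 of 38, and the Plxnb2 stretch at chr15:89167517-89167606 on the minus strand, in exon 2 of 36. The Plxnd1 and Plxnc1 stretches are in exon 1, at chr6:115994714-115994803 and chr10:94944467-94944556, both on the minus strand. G and C make up 64 of the 90 bases in Plxnb1 and in Plxnb2, 77 in Plxnd1 and 73 in Plxnc1. Over 16105 coding sequences the median of the richest window was 67.8%, and Plxnb1 with its 71.1% stood at percentile 66.2 while Plxnd1 stood at percentile 97.1. Plxnb1 thus has a GC-rich transcript as a whole but no exceptional GC-rich stretch of this length in its coding sequence.

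In UV-RIP, Plxnb1 was the plexin with the highest IP to input ratio. Its inputs held 38.1, 36.5, 42.3 and 41.3 CPM in replicates 3 to 6 (456 to 571 UMIs), and its IPs held 84.8, 68.4, 82.3 and 81.3 CPM (1008 to 1405 UMIs). Every IP lay above every input, and the IP was 2.23, 1.87, 1.95 and 1.97 times its own input on the 4 plates. The fitted fold was 2.00 (log2 fold change 1.00 ± 0.050 SE, edgeR quasi-likelihood test with Benjamini-Hochberg adjusted p = 1.95e-86, n = 4 plates). The UV-RIP p-values rest on a spread shared over all genes and do not measure the spread of Plxnb1 over its plates. Plxnb1 was called enriched by the rule used for all genes, a fold above 1.5 with an adjusted p below 0.05, which 0.680% of the 22936 genes passed in UV-RIP. Among the 10208 genes with a mean of at least 100 UMIs, Plxnb1 ranked 3 from the top by log2 fold change.

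Plxnb2, a B-type plexin that shares its class 4 ligands with Plxnb1, was the other enriched member. Plxnb2 (ENSMUSG00000036606.16) had 102, 100.1, 105 and 101 CPM in the inputs and 162, 151, 173 and 173 CPM in the IPs of replicates 3 to 6. The groups did not overlap and the input values were narrowly spread. The fold was 1.61 (log2 fold change 0.69 ± 0.042 SE, adjusted p = 2.30e-57). A test of the fold of 1.5 itself placed Plxnb1 above it (adjusted p = 4.36e-15) and not Plxnb2 (adjusted p = 0.117), and with the GC trend removed Plxnb2 fell below the fold, at 0.53 on the log2 scale.

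The 4 A-type plexins, the receptors that act with neuropilins, were higher in the UV-RIP IP by smaller folds or not distinguishable. Plxna1 rose from 141, 143, 151 and 150.1 CPM in the inputs to 200.1, 198, 196 and 199.9 CPM in the IPs, a fold of 1.36 (log2 fold change 0.44 ± 0.041 SE, adjusted p = 8.06e-26). Plxna3 rose from between 13.7 and 14.8 CPM to between 18.6 and 21.4 CPM, a fold of 1.39 (adjusted p = 9.01e-10). Neither group pair overlapped, and both folds stayed under 1.5. Plxna2 had 36.2 to 44.4 CPM in the inputs and 43.4 to 55.7 CPM in the IPs, ranges that overlapped, although each IP exceeded its own input, and its fold was 1.24 (adjusted p = 2.61e-08). Plxna4 was counted with 14 to 29 UMIs per UV-RIP library, and its log2 fold change of 0.18 did not pass the test (adjusted p = 0.609).

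Plxnc1, Plxnd1 and Plxnb3 completed the family in UV-RIP. Plxnc1 had 13.6 to 15.4 CPM in the inputs and 16.4 to 19.4 CPM in the IPs, with a fold of 1.23 (log2 fold change 0.30 ± 0.075 SE, adjusted p = 0.000264). Plxnd1 was read with 16 to 40 UMIs per library, and its log2 fold change of 0.41 ± 0.19 SE did not pass (adjusted p = 0.079) even though no IP value fell among the inputs. Plxnb3 had 3 to 10 UMIs per library and a 95% interval of its log2 fold change from -0.77 to 1.13, and a change inside that interval was not detectable at this depth. In all, 2 of the 9 plexins were enriched and 0 were depleted, against 0.680% and 5.53% of all genes tested. These shares, 156 and 1268 of 22936 genes, changed with the library scaling. With TMM scaling 5 plexins and 505 genes were enriched, and 0 plexins and 425 genes depleted. With DESeq2 median-of-ratios 4 plexins and 288 genes were enriched, and 0 plexins and 235 genes depleted. No plexin was lower in the IP at an unadjusted p below 0.05 by edgeR in either method (0 of 9), and none was depleted by DESeq2. Without a fold limit 6 of 9 were higher in the IP, against 6.60% of all genes and 12.7% of those with a mean of at least 100 UMIs, and in 6 of 9 every IP was above every input, against 4.93%. The median log2 fold change of the 9 was 0.41.

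**Figure D1:**
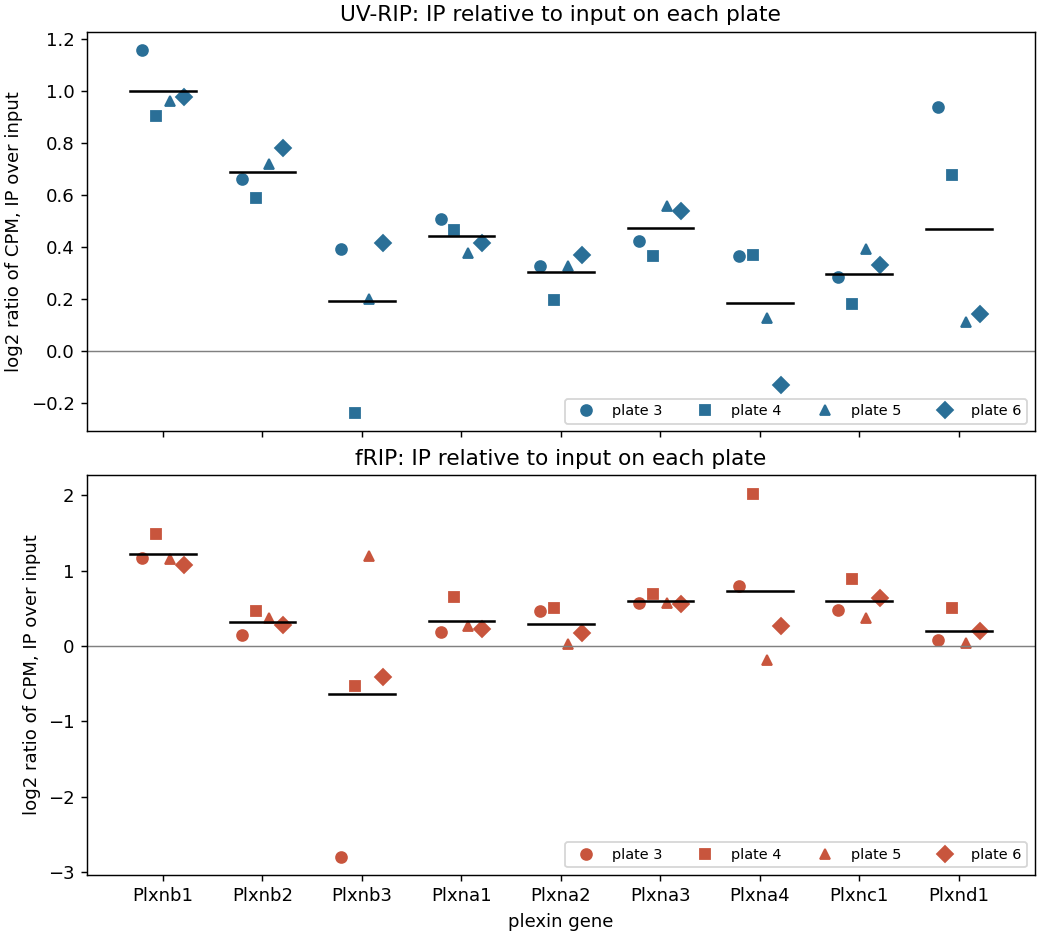
The log2 ratio of CPM in the IP to CPM in the input of the same plate (y axis) is plotted for each of the 9 plexins (x axis) in UV-RIP (top) and fRIP (bottom). Symbols stand for plates and black lines for the mean of 4 plates. Plxnb1 was the highest of the 9 on all 4 UV-RIP plates and on 2 of 4 fRIP plates, where the sparsely counted Plxna4 and Plxnb3 spread widely.

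In fRIP the enrichment of Plxnb1 was seen again on 4 other plates. Its inputs held 37.6, 33.2, 42.0 and 39.1 CPM in replicates 3 to 6 and its IPs 84.5, 93.2, 93.1 and 82.7 CPM, which is 2.25, 2.81, 2.22 and 2.11 times the input. All IPs were above all inputs. The fitted fold was 2.33 (log2 fold change 1.22 ± 0.086 SE, adjusted p = 1.58e-10), and the rule for enrichment was passed by 8.80% of all genes in fRIP. The log2 fold change was 1.13 without plate 4 and 1.25 without plate 5. With more genes enriched than in UV-RIP, Plxnb1 ranked 84 from the top among the 10208 well counted genes.

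Plxna3, a receptor for class 3 semaphorins, and Plxnc1, the receptor of Sema7a, were the other enriched plexins in fRIP, both just past the fold limit. Plxna3 had 12.4, 12.6, 14.04 and 13.4 CPM in the inputs and 18.3, 20.3, 20.9 and 19.6 CPM in the IPs, with no overlap and a fold of 1.51 (log2 fold change 0.60 ± 0.095 SE, adjusted p = 1.45e-05). Plxnc1 had 10.47, 8.01, 10.6 and 9.69 CPM in the inputs and 14.6, 14.9, 13.8 and 14.99 CPM in the IPs, with no overlap and a fold of 1.505 (log2 fold change 0.59 ± 0.11 SE, adjusted p = 8.82e-05). Both calls were lost without plate 4, which holds the input library that stood apart, at log2 fold changes of 0.56 and 0.49, while both remained without plate 5 at 0.60 and 0.66. The lost calls concern the fold limit, since the adjusted p values without plate 4 were 2.51e-09 for Plxna3 and 2.97e-06 for Plxnc1. The Plxna3 call was also lost with the GC trend removed (0.54), and the Plxnc1 call without plate 6 (0.58) and with the gene-length trend removed (0.18).

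Plxna1, Plxnb2 and Plxna2 were higher in the fRIP IP without reaching the fold limit. Plxna1 had 183, 128, 188 and 184 CPM in the inputs and 207, 201, 227 and 215 CPM in the IPs, a fold of 1.26 (log2 fold change 0.33 ± 0.082 SE, adjusted p = 0.00211). The low value is the input of plate 4, and without that plate the log2 fold change was 0.23 (adjusted p = 3.41e-05), while without plate 5 it was 0.35 (adjusted p = 0.0112). The trend of log2 fold change on gene-body length amounted to 0.17 at Plxna1 in fRIP. The lowest log2 fold change of Plxna1 over the alternative settings was 0.16. Plxnb2 had 153, 123, 151 and 148 CPM in the inputs and 169, 169.9, 196 and 179 CPM in the IPs, a fold of 1.24 (log2 fold change 0.31 ± 0.077 SE, adjusted p = 0.00183). Without plates 4 and 5 in turn Plxnb2 stood at 0.27 (adjusted p = 1.61e-06) and 0.29 (adjusted p = 0.0168). The groups of both genes were close but did not overlap. Plxna2 had 34.2 to 44.2 CPM in the inputs and 36.6 to 54.8 CPM in the IPs, overlapping ranges with a fold of 1.22 (adjusted p = 0.0112), and its lowest IP value is that of plate 5. Without plates 4 and 5 in turn its log2 fold change was 0.23 (adjusted p = 0.00222) and 0.38 (adjusted p = 0.00753), and without plate 3 it no longer passed (0.23, adjusted p = 0.124). The positive sign of Plxna2 also rested on the treatment of gene length, since it was -0.15 (adjusted p = 0.22) once the trend of log2 fold change on gene-body length was removed.

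The 3 sparsely counted members did not pass in fRIP. Plxna4 went from 7 to 20 UMIs in the inputs and 27 to 41 UMIs in the IPs, with a log2 fold change of 0.63 ± 0.29 SE (adjusted p = 0.0855). Its plates gave folds from 0.88 to 4.05, and it passed with no filter on low counts (adjusted p = 0.0373), without plate 5 (0.93, adjusted p = 0.0413) and without plate 6 (0.78, adjusted p = 0.0467). Plxnd1 had 21 to 31 UMIs in the inputs and 28 to 49 in the IPs, with overlapping CPM and a log2 fold change of 0.20 (adjusted p = 0.499), or 0.10 without plate 4 and 0.26 without plate 5, neither of which passed. Plxnb3 had 1 to 7 UMIs per library and a log2 fold change of -0.46 with a 95% interval from -1.91 to 0.99, and values of -0.43 without plate 4 and -1.10 without plate 5 that did not pass either. Plxna4 without plate 4 was at 0.27 (adjusted p = 0.443). In all, 3 of 9 plexins were enriched and 0 depleted in fRIP, against 8.80% and 10.7% of all genes. At any fold 6 of 9 were higher in the IP, against 17.6% of all genes and 29.2% of the well counted genes, and in 5 of 9 the groups did not overlap, against 15.3%. The median log2 fold change of the 9 was 0.33.

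**Figure D2:**
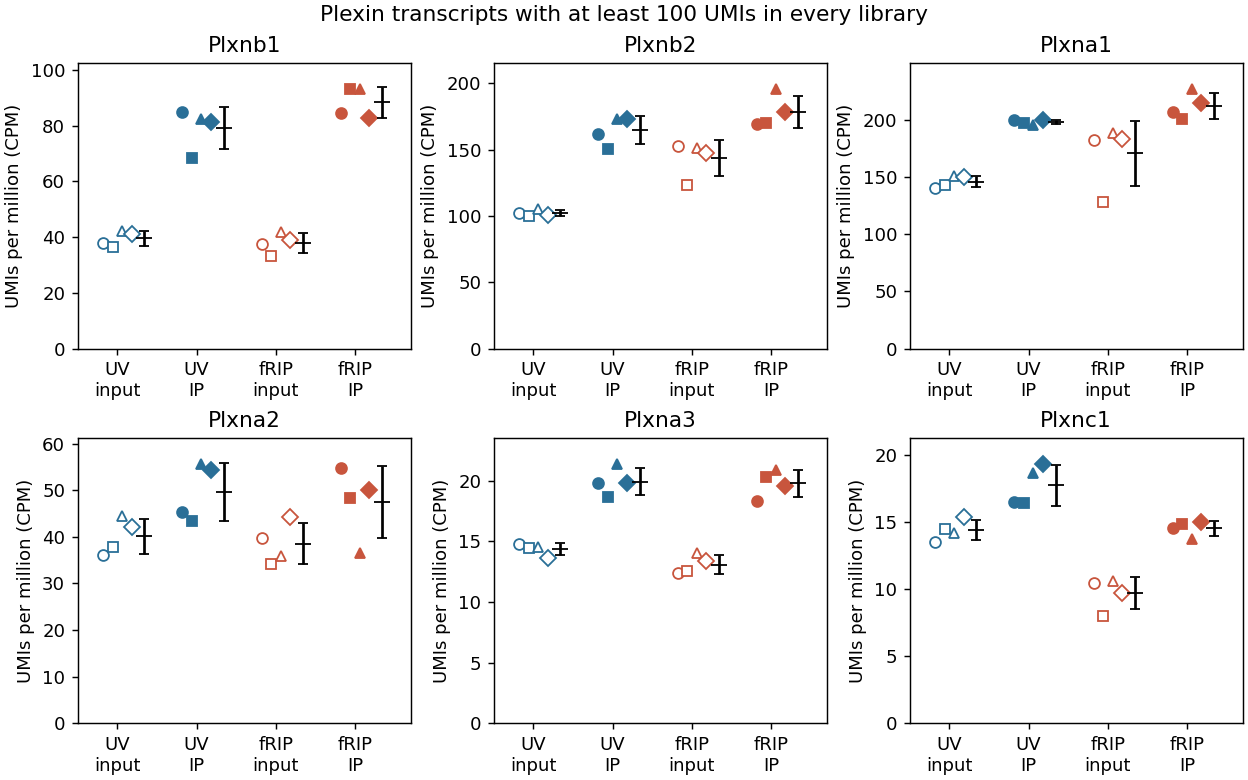
CPM (y axis, from 0) in each of the 16 libraries is plotted for the 6 plexins that had at least 100 UMIs in every library. Open symbols are inputs, filled symbols are IPs, the symbol shape stands for the plate as circle 3, square 4, triangle 5 and diamond 6, and black bars give the mean ± SD of 4 libraries. For Plxnb1 the IPs lie at 68.4 to 93.2 CPM and the inputs at 33.2 to 42.3 CPM over both methods, and for Plxnb2 the fRIP inputs (123 to 153 CPM) are above the UV-RIP inputs (100.1 to 105 CPM).

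The crosslinkers were compared for each plexin by testing the fRIP minus UV-RIP difference in log2 fold change, an interaction term over the 16 libraries. Plxnb2 was the only member that differed in the analysis as designed, with a ratio lower in fRIP by -0.37 ± 0.085 SE on the log2 scale (adjusted p = 0.00136), while 8.07% of all genes had a ratio lower in fRIP and 18.6% had one higher in fRIP. These shares, 1852 and 4264 of 22936 genes, changed with the library scaling. The genes lower and higher in fRIP were 2810 and 3062 with TMM scaling, 2955 and 2863 without Gm26917 and Gm42418 in the library size, and 2364 and 2114 with DESeq2 median-of-ratios. Between the methods the Plxnb2 inputs were 102 ± 2.19 and 144 ± 13.8 CPM (SD, n = 4) and the IPs 165 ± 10.6 and 178 ± 12.4 CPM, in the order UV-RIP and fRIP. The inputs of the methods did not overlap, and the IP ranges did. The input levels were not tested against each other. For Plxnb1 the difference was 0.22 (95% interval 0.018 to 0.424, adjusted p = 0.106), and for Plxnc1 it was 0.29 (0.025 to 0.553, adjusted p = 0.104). Neither passed, and neither interval shows that the methods gave the same ratio. With replicate 4 of both methods left out together (4 libraries), the Plxnb1 difference was 0.11 and the Plxna1 difference passed, at -0.21 (adjusted p = 0.0104) against -0.11 (adjusted p = 0.430) over all 16 libraries. The Plxna1 difference also passed with TMM scaling (-0.23, adjusted p = 0.0433), with library size without Gm26917 and Gm42418 (-0.25, adjusted p = 0.041), with DESeq2 median-of-ratios (-0.26, adjusted p = 0.021) and with the gene-length trend removed (-0.27, adjusted p = 0.0452). In the last of these the Plxna2 difference passed too, at -0.37 (adjusted p = 0.0154) against -0.01 without that correction. With the GC trend removed the Plxnb1 difference also passed, at 0.29 (adjusted p = 0.0289).

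Within a plate, Plxnb1 can be set directly against each other plexin, which needs no scaling of the libraries. The log2 ratio of Plxnb1 exceeded that of Plxnb2 by 0.31 ± 0.13 (SD, n = 4 plates) in UV-RIP and by 0.91 ± 0.14 in fRIP. It exceeded that of Plxna1 by 0.56 ± 0.088 and 0.89 ± 0.067, and that of Plxna3 by 0.53 ± 0.15 and 0.63 ± 0.12. Against Plxna2 and Plxnc1 the excess lay between 0.63 and 0.93 in both methods. Plxnb1 was the higher on every plate in each of these pairs, whereas on the fRIP plates it was above Plxna4 and above Plxnb3 on 3 of 4. Because Plxnb1 had been singled out on these libraries, these differences carry no test.

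The 9 plexins together made up 360 ± 13.01 CPM of the UV-RIP input and 534 ± 24.4 CPM of the UV-RIP IP, and 417 ± 50.2 and 565 ± 18.7 CPM in fRIP (SD, n = 4 each). Within this total, Plxnb1 went from 11.0% to 14.8% in UV-RIP and from 9.14% to 15.7% in fRIP, means over 4 libraries that hold whatever the library size. Plxna1 gave the largest share of plexin UMIs in all 4 groups, 40.6% and 37.2% in the UV-RIP input and IP and 40.8% and 37.6% in fRIP. The Plxnb2 share was 28.3% in the input and 30.8% in the IP of UV-RIP, and 34.6% and 31.6% in fRIP.

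Levels were compared between the genes per kb, as CPM in the input per kb of gene body. In the UV-RIP input Plxnb2 was the highest with 6.55 ± 0.14 CPM per kb (SD, n = 4), followed by Plxna1 with 3.16 ± 0.11, Plxnb1 with 1.61 ± 0.11 and Plxna3 with 0.920 ± 0.031. Plxna2 (0.202), Plxnc1 (0.0937), Plxnd1 (0.0437), Plxnb3 (0.0238) and Plxna4 (0.00308) followed, and of all neighbours in this order Plxnd1 and Plxnb3 alone had overlapping ranges. The order was the same in the fRIP input, where Plxnb2 had 9.23 ± 0.89, Plxna1 3.69 ± 0.61 and Plxnb1 1.55 ± 0.15 CPM per kb, and where Plxnc1 and Plxnd1 overlapped. Plxnb1 was therefore the third most abundant plexin RNA by gene body in these mESC and was not the most abundant at any length used. Per kb of merged exons Plxna1 (16.1 and 18.9 CPM per kb in UV-RIP and fRIP) came before Plxnb2 (13.2 and 18.6), with overlapping ranges in fRIP, and Plxnb1 was again the third with 4.12 and 3.96. The merged-exon length of Plxnb2 is that of the other annotation version, so its place against Plxna1 is uncertain on this scale.

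**Figure D3:**
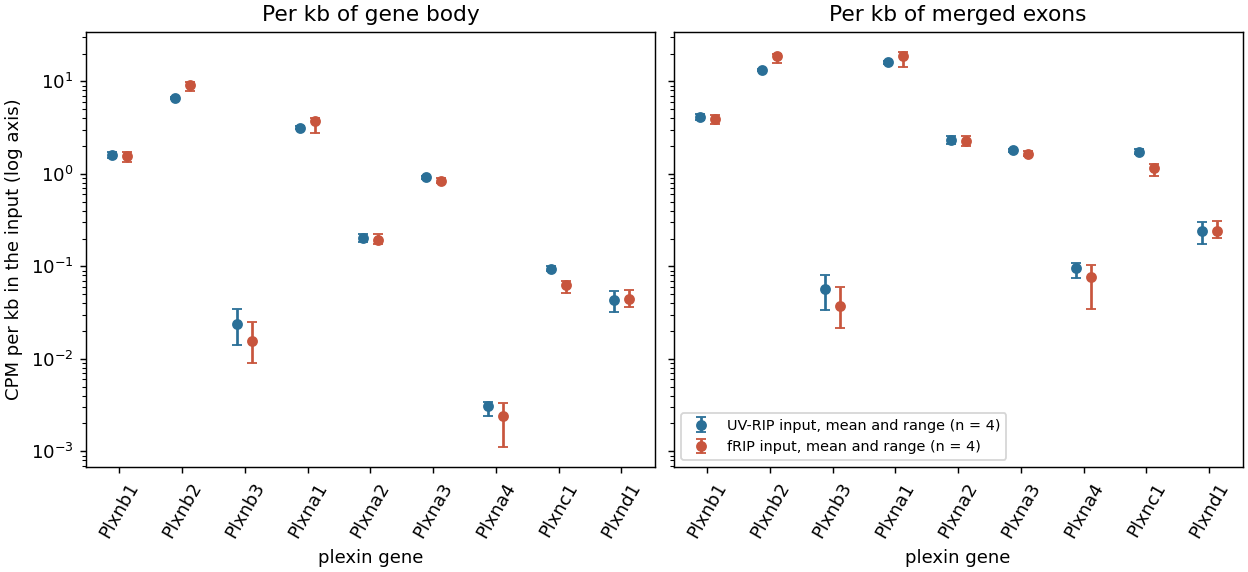
Input levels of the 9 plexins in CPM per kb are plotted on a log axis, per kb of gene body (left) and of merged exons (right), as the mean of 4 libraries with bars from the lowest to the highest. Plxnb2, Plxna1 and Plxnb1 lie at the top in both panels, and Plxna4 and Plxnb3 at the bottom.

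The other genes of the pathway were counted whole, in lists of 20 semaphorins, 9 co-receptors and partners and 28 intracellular effectors, all 57 of which were tested. In UV-RIP 1 of 57 was enriched and 0 were depleted by edgeR, against 0.680% and 5.53% of all genes. At any fold 15 were higher in the IP with an adjusted p below 0.05, against 6.60% of all genes and 12.7% of the well counted genes. At any fold 11 were lower, as were 6640 of all 22936 genes, and 12 were lower at an unadjusted p below 0.05. The enriched gene was Mical2, a member of the family of actin-oxidizing enzymes that act below A-type plexins. It had a mean of 17.1 UMIs per library and a log2 fold change of 0.77 ± 0.29 SE (adjusted p = 0.024). It was no longer called without plate 5 (0.71, adjusted p = 0.0663) or without plate 6 (0.39, adjusted p = 0.472), and stood at 1.16 without plate 3. The medians of the lists in UV-RIP were 0.05 for the semaphorins, 0.19 for the co-receptors and partners and -0.09 for the effectors, beside -0.17 for all genes and 0.41 for the plexins.

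In fRIP 8 of 57 pathway genes were enriched and 2 depleted, against 8.80% and 10.7% of all genes, and the co-receptors, among them the neuropilins Nrp1 and Nrp2, were in neither group (0 of 9 by edgeR and by DESeq2, with 1 higher at an unadjusted p below 0.05). Those with the largest changes were the semaphorin Sema5b (log2 fold change 1.02, adjusted p = 1.13e-09), the Mical family member Mical3 (0.98, adjusted p = 3.01e-09), the Src-family kinase Fyn (0.87, adjusted p = 5.87e-08), the Rac exchange factor Tiam1 (0.84, adjusted p = 1.29e-07), Mical2 (0.82, adjusted p = 0.014) and, as a depleted gene, the actin-severing protein Cfl1 (-1.003, adjusted p = 9.43e-10). Leaving out plate 4 or plate 5 kept all 6 calls, with values from 0.68 for Tiam1 to 1.03 for Sema5b among the enriched and -0.92 and -1.06 for Cfl1. Mical2 was no longer called without plate 6 (0.71, adjusted p = 0.104) or by DESeq2 (adjusted p = 0.131 and 0.134), and removing the gene-length trend ended the calls of Mical2 (0.45), Mical3 (0.54), Fyn (0.43) and Tiam1 (0.40). The same genes had UV-RIP log2 fold changes of 0.29 for Sema5b, 0.21 for Mical3, 0.29 for Fyn, 0.16 for Tiam1 and -0.47 for Cfl1. Over the 57 genes, the ratio was higher in fRIP for 15 and higher in UV-RIP for 2, against 18.6% and 8.07% of all genes and 34.5% and 15.9% of the well counted genes. At any fold 18 of the 57 were higher in the fRIP IP and 7 were lower, with an adjusted p below 0.05 by edgeR. Of all 22936 genes 17.6% were higher and 5018 were lower, and of the well counted genes 29.2% were higher. Medians in fRIP were 0.23 for the semaphorins, 0.11 for the co-receptors and partners and 0.04 for the effectors, beside -0.03 for all genes.

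**Figure D4:**
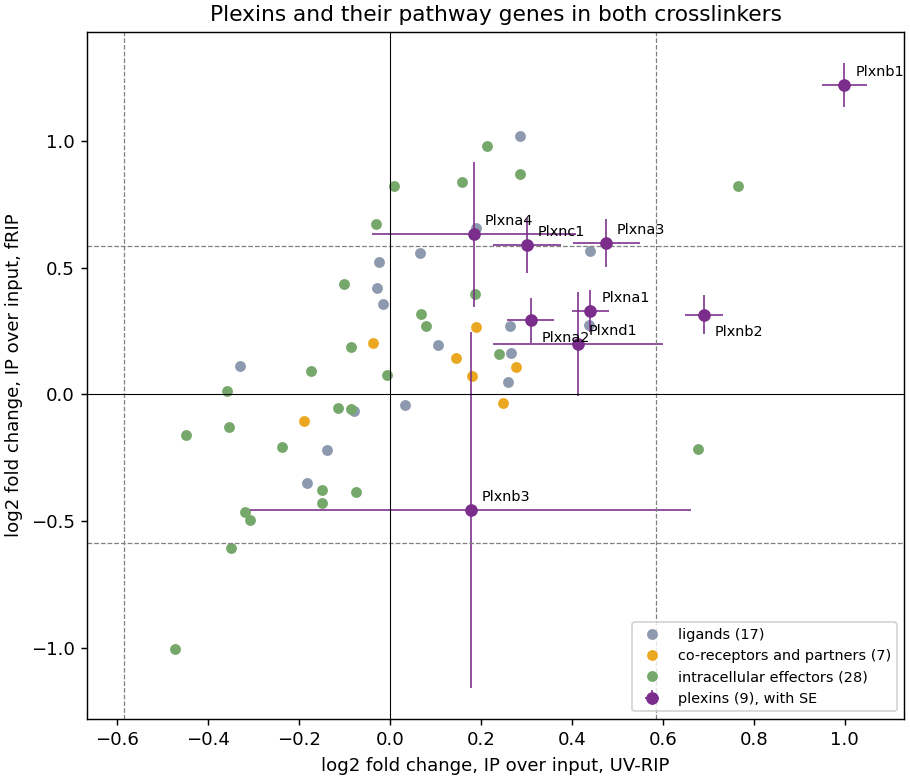
The log2 fold change of IP over input in UV-RIP (x axis) is plotted against that in fRIP (y axis) for the 9 plexins with their SE and for pathway genes with a mean of at least 10 UMIs per library. Dashed lines mark a fold of 1.5 in either direction. Plxnb1 lies at 1.00 and 1.22, beyond the line in both methods, while Plxnb2 passes it in UV-RIP alone and Plxna3 and Plxnc1 sit on it in fRIP.

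Genes whose level followed that of Plxnb1 most closely were looked up over the 16 libraries, among 10207 other genes with a mean of at least 100 UMIs. The 5 with the highest Pearson correlation of log2 CPM were Pepd (0.980), Abca7 (0.980), Pkd1 (0.972), Ptp4a3 (0.968) and Plxna3 (0.965). Among the other plexins, Plxna1 came at rank 280 (0.836), Plxnb2 at 462 (0.793), Plxnc1 at 1062 (0.673) and Plxna2 at 1069 (0.672). The 16 points fall into IP and input groups of 2 methods and share library scaling, so these values describe likeness over these libraries and carry no p. The log2 fold changes in UV-RIP and fRIP were 0.82 and 1.103 for Pkd1, 0.74 and 0.84 for Abca7, 0.63 and 0.94 for Ptp4a3 and 0.58 and 0.94 for Pepd.

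Base composition, gene length and library scaling moved these values to different degrees. The GC trend over all genes amounted to 0.20 at the GC content of Plxnb1 in UV-RIP and 0.13 in fRIP, and after its removal Plxnb1 stood at 0.80 (adjusted p = 7.77e-55) and 1.09 (adjusted p = 9.70e-10). The gene-length trend amounted to 6.29e-05 at Plxnb1 in UV-RIP and 0.055 in fRIP, but to 0.41 at Plxnc1 and 0.44 at Plxna2 in fRIP, where Plxnc1 fell to 0.18 (adjusted p = 0.212). With TMM scaling, which brought the median of all genes from -0.17 to 0.01 in UV-RIP, the number of plexins enriched in UV-RIP was 5, adding Plxna1 (0.62), Plxna3 (0.66) and Plxnd1 (0.59). The enriched among all 22936 genes rose as well, from 156 to 505. The antisense gene Gm7628, which shares 2408 bases with Plxnb1, had 0 to 9 UMIs per library, and Gm26811, opposite Plxna1 over 11308 bases, had 2 to 47. Whether counting used the strand, and how reads over overlapping genes were treated, is not given in the sources used here. Whether reads of an antisense partner entered a plexin count, or shared bases were lost from it, is therefore not known.

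**Figure D5:**
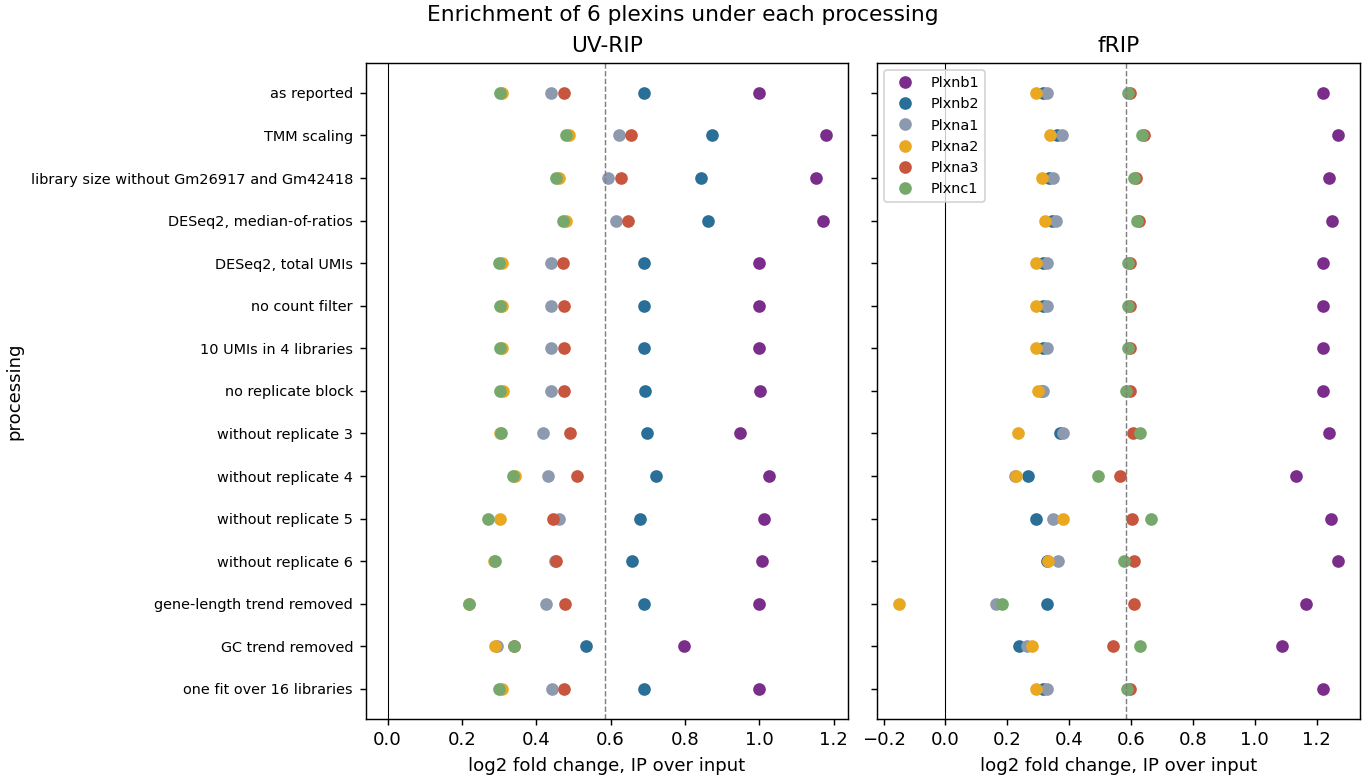
The log2 fold change of IP over input (x axis) is plotted for 6 plexins under each processing (y axis) in UV-RIP (left) and fRIP (right), with a dashed line at a fold of 1.5. Plxnb1 stayed the highest of the 6 and past the line in every setting drawn, from 0.80 to 1.18 in UV-RIP and from 1.09 to 1.27 in fRIP.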

How the data were processed

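Per the labels and the study's methods, reads were aligned with STAR to mm10 with GENCODE vM16 genes, multiply mapped reads were dropped, and the authors deposited UMI counts per gene over gene bodies for 16 libraries (KAPA RiboErase, paired-end NextSeq). Versions and the strand setting are not given in the sources used here.

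From these counts, genes with at least 3 UMIs in at least 1 of 16 libraries were kept (22936 of 53379). IP and input were compared within each method with edgeR 4.0.16 (quasi-likelihood F test, R 4.3.3), total UMIs as library size and the replicate number as a block, with Benjamini-Hochberg adjustment over all genes. Enriched meant a fold above 1.5 and an adjusted p below 0.05. The difference between the methods was the interaction over 16 libraries with the plate as a block. In UV-RIP the fit used 1 spread shared over all genes, and its p-values refer to that spread. They do not measure the spread of each gene over its plates and are not comparable with the fRIP p-values. The block pairs samples because the IP and input of a number share a lysate, and their deviations from the group means correlated by 0.03 to 0.44 in UV-RIP and 0.11 to 0.60 in fRIP. Plates of 1 line are the replicates, and no donors or animals stand behind them.

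Symbols, coordinates, lengths and sequences came from GENCODE vM21 (GRCm38), where 50604 genes matched by identifier and version and 2670 by identifier. DESeq2 1.42.0 was an alternative. The fits were tested on simulated data. All 9 plexins were named, with every pathway gene called in UV-RIP, the 6 largest changes in fRIP among called pathway genes with a mean of at least 10 UMIs, and the 5 genes most correlated with Plxnb1. Members and lists were chosen with earlier results of these data known. No control-antibody pulldown was used here, and intervals at a count of 0 (3 counts) cover counting error only.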

Additional observations from a re-analysis of the deposited data

Results flagged for a closer look

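Among the 54 groups of 4 values examined for the plexins, 2 held a value far from the other 3 by Dixon's criterion at 95%, where chance gives about 1 in 20. Plxna1 had 128.4 CPM in the fRIP input of plate 4, against 182.7 to 188.4 CPM in the other 3 inputs. Plxna3 had a log2 IP to input ratio of 0.692 on fRIP plate 4, against 0.5523 to 0.5731 on the other 3 plates. Both values come from the plate whose input library stood apart over all genes.

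The ratio of IP to input differed between the methods for 6 named genes, by the interaction test over 16 libraries (edgeR), where 18.6% of all genes had a higher ratio in fRIP and 8.07% in UV-RIP. Apart from Plxnb2 they were named for large changes in fRIP, which favours a difference in the direction of their fRIP change, so their differences are given as a description. Of the 57 pathway genes as a whole, 17 differed. Plxnb2 was lower in fRIP by -0.3749 on the log2 scale (adjusted p = 0.00136), in all 13 alternatives with a direction unchanged and adjusted p values from 1.16e-09 to 0.0345. Mical3 differed by 0.7655 (adjusted p = 1.5e-06), Sema5b by 0.7359 (adjusted p = 1.45e-06), Tiam1 by 0.6783 (adjusted p = 4.06e-05) and Fyn by 0.5853 (adjusted p = 0.000278), all higher in fRIP. With the gene-length trend removed the Fyn difference was 0.23 and no longer passed (adjusted p = 0.177), and those of Mical3, Sema5b and Tiam1 were 0.41, 0.44 and 0.33 and still passed. Cfl1 differed by -0.5297 (adjusted p = 4.82e-05), being more depleted in fRIP, and passed under all 13 alternatives (-0.68 to -0.38).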

How the results depend on the processing

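The call of Plxnb1 held under all 16 alternatives of each method, at 0.80 to 1.18 in UV-RIP and 1.09 to 1.27 in fRIP on the log2 scale, and no plexin was depleted under any. The 2 enriched plexins in UV-RIP became 5 with TMM, 4 with library size without Gm26917 and Gm42418 and with DESeq2 median-of-ratios, 1 with the GC trend removed or with the fold of 1.5 tested, and 6 with no fold limit, and stayed 2 without each replicate in turn. The enriched among all 22936 genes moved from 156 to 505 with TMM, 419 without those loci and 288 with DESeq2 median-of-ratios. They numbered 101 with the GC trend removed, 17 with the fold tested, 1514 with no fold limit and 138 to 185 without a replicate. The 3 in fRIP became 6 with no fold limit, 1 with the fold tested, 2 with the GC trend (without Plxna3) or the gene-length trend (without Plxnc1) removed, 4 with no count filter, and 1 to 4 without a replicate in turn. The 2018 enriched among all 22936 genes became 4036 with no fold limit, 728 with the fold tested and 1987 and 1394 with the GC and gene-length trends removed. They were 2054 of 30277 with no count filter and 1790 to 2040 without a replicate. The 1 plexin that differed between the methods became 2 with TMM, with library size without those loci, with DESeq2 median-of-ratios and with the GC trend removed, 3 with the gene-length trend removed, and 1 to 2 without a replicate. Of all 22936 genes 4264 were higher in fRIP and 1852 in UV-RIP. These became 3062 and 2810 with TMM, 2863 and 2955 without those loci and 2114 and 2364 with DESeq2 median-of-ratios. They were 4667 and 1650 with the GC trend removed, 2245 and 1613 with the gene-length trend removed, and 3137 to 4062 and 1314 to 1927 without a replicate. Without the replicate block, 2 plexins passed in UV-RIP and 2 in fRIP, where Plxnc1 (0.58) fell under the fold limit, 1 differed, and no other call of a plexin changed. Of all 22936 genes 157 and 1964 were then enriched in UV-RIP and fRIP, and the ratio was higher in fRIP for 3285 and in UV-RIP for 1214.

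Pathway genes called in UV-RIP numbered 1, then 4 with TMM or without those loci, 0 with DESeq2 on total UMIs, without the block, with the fold tested or in one fit over 16 libraries, 26 with no fold limit (15 higher and 11 lower), and 0 to 2 without a replicate. Of all 22936 genes 156 were enriched and 1268 depleted. These became 505 and 425 with TMM, 419 and 505 without those loci, 78 and 882 with DESeq2 on total UMIs and 157 and 1280 without the block. They were 17 and 200 with the fold tested, 123 and 1154 in one fit, 1514 and 6640 with no fold limit, and 138 to 185 and 1115 to 1325 without a replicate. In fRIP the 10 called became 5 with the gene-length trend removed, 6 with the fold tested and 25 with no fold limit. Those 25 were 18 higher and 7 lower. Among all 22936 genes fRIP had 2018 enriched and 2448 depleted. Removal of the length trend left 1394 enriched and 2306 depleted, and testing the fold left 728 and 1007. No fold limit gave 4036 higher and 5018 lower.

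Some signs turned. Plxna2 in fRIP, which had passed at any fold (0.29, adjusted p = 0.0112), was -0.15 with the length trend removed (adjusted p = 0.22). The others had not passed in the analysis as designed. Plxnb3 in fRIP ran from -1.10 to 0.15 without a replicate in turn. Of the differences between the methods, Plxna2 ran from -0.112 to 0.0794 and Plxnb3 from -1.26 to 0.0397 without a replicate in turn (Plxna2 passed at -0.37 with the length trend removed), Plxna3 was -0.0104 and -0.0234 with library size without those loci and with DESeq2 median-of-ratios and Plxnc1 -0.0355 with the length trend removed. The Mical2 difference was -0.0580 with TMM, -0.0776 without those loci, -0.246 to 0.309 without a replicate and -0.243 with the length trend removed. The cause was not tested for any of these. Depth limits Plxnb3, Plxna4 and Plxnd1, which had at most 10, 41 and 49 UMIs in a library.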
